A study of Homo sapiens with 21 samples.

Results

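The replication-dependent histone genes are the clustered genes whose symbols name the linker histones H1-1 to H1-5 and the H2AC, H2BC, H3C and H4C copies of the core histones. Protein-coding rows with such a symbol were taken from the table of deposited values, which gave 65 genes of 60728 rows. Of these, 35 had a mean value of 5 or more over all libraries (3 of 5 H1, 9 of 16 H2A, 11 of 17 H2B, 5 of 13 H3 and 7 of 14 H4 genes) and were tested. The other 30 did not reach this mean: 5 were listed at 0 in every library (H1-1, H2AC1, H2BC1, H4C6 and H4C7) and 25 had some reads. H1-4 lay just inside the limit with a mean of 5.61 and H1-3 just outside it with 4.49.

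RNA-Seq was carried out in SK-N-BE(2), an established human neuroblastoma cell line, 72 h after transduction with lentiviral particles carrying a short hairpin RNA (shRNA), which lowers the level of its target transcript. The 21 libraries fell into 7 conditions with 3 biological replicates each: Control, shARID1A.2 and shARID1A.4, shARID1B.2 and shARID1B.3, and shARID1A/B.2.3 and shARID1A/B.4.2, whose labels name both genes. ARID1A and ARID1B are alternative subunits of the BAF chromatin remodelling complex. All cells received lentivirus, Control included (a non-silencing shRNA in the study), and libraries were made with a stranded mRNA kit, which selects polyadenylated RNA.

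Histones are the proteins that DNA is wrapped around. A core of H2A, H2B, H3 and H4 makes the nucleosome, and H1 binds the DNA that links nucleosomes. The replication-dependent genes supply new histones in S phase, when DNA is copied. Unlike other messenger RNAs, their main transcripts end a short way after a conserved stem-loop and carry no poly(A) tail. SLBP binds the stem-loop and, with the U7 small nuclear RNA, directs the cut. Some of these genes also hold poly(A) signals further downstream, and polyadenylated histone transcripts are known from differentiating cells and from cells in which the cut is impaired. A poly(A)-selected library is therefore meant to sample the smaller, polyadenylated part of histone transcripts, not the bulk of histone messenger RNA.

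The stem-loop is the sequence that sets these genes apart, so its forms are shown first. A hairpin with a stem of 6 bases and a loop of 4 bases was searched for within 100 bases after the stop codon in transcripts of GENCODE release 29 (GRCh38). It was found in 27 of 63 members with a gene in that release (42.9%) and in 24 of 19495 other protein-coding genes (0.123%), which include H2AX (named H2AFX there). A member without it has no annotated transcript that reaches that far with these letters, and nothing follows from this about its true end. There were 5 forms, and 1 member with a high value is shown for each, with the stem and loop in capitals.
H2AC6: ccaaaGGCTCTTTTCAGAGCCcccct
H2BC5: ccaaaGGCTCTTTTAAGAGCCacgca
H4C8: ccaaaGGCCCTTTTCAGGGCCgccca
H4C14: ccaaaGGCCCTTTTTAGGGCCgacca
H3C6: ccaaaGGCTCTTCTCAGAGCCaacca
The form of H2AC6 was shared by 15 members, that of H2BC5 by 4, that of H4C8 by 4 and that of H4C14 by 3, while that of H3C6 was found in H3C6 alone. The stem-loop lay 43 bases after the stop codon in H2AC6 (chr6:26124669-26124684, plus strand) and 35 bases after it in H4C14 (chr1:149833032-149833047, plus strand).

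The upstream sequences of 3 members whose values moved in different ways are shown next, as the 250 bases before the RefSeq start (GRCh38.p14). Capitals mark the letters TATAAA (on the other strand TTTATA), which can overlap their own reverse. They also mark CCAAT (on the other strand ATTGG) and the octamer bound by OCT1, ATTTGCAT (on the other strand this reads ATGCAAAT).
H2AC6, chr6:26123922-26124171, plus strand: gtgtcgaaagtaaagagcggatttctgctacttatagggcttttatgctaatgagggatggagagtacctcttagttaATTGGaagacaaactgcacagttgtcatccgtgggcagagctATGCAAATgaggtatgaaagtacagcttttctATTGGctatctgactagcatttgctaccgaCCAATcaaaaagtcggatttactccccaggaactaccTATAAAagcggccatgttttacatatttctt
H2BC12, chr6:27146856-27147105, minus strand: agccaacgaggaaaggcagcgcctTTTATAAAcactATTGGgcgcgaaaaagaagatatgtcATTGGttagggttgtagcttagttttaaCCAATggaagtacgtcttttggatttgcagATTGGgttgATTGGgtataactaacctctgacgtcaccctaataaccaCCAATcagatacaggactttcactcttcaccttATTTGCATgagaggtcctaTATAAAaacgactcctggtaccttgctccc
H1-2, chr6:26056471-26056720, minus strand: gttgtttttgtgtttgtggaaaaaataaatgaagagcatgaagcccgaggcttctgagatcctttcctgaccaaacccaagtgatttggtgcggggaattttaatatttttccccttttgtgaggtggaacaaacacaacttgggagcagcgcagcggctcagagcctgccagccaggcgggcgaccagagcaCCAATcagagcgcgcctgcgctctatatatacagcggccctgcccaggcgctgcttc
Over the 60 members in the RefSeq table, on either strand, TATAAA was present in 70% against 12.9% of the promoters of 27245 other genes, CCAAT in 85% against 36.9%, and the octamer in 43.3% against 1.94%. CCAAT was found in 100% of H1, H2A, H2B and H3 members and in 25% of H4 members. The octamer was found in 73.3% of H2A and 82.4% of H2B members, in 9.09% of H3 members and in 0% of H1 and H4 members. These are matches of letters, not measured binding.

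Recovered reads per library ranged from 27954334 to 41077638, and the members took 929 to 3923 of them, or 0.00248% to 0.0106%. All 9 noradrenergic neuroblastoma markers were detected in every condition, none at 0, with sums of 126959 to 491086. ARID1A had values of 6097 to 6463 in Control, 2109 to 2169 and 2157 to 2289 in the libraries labelled shARID1A.2 and shARID1A.4, 1882 to 1962 and 2449.7 to 2507 in those labelled shARID1B.2 and shARID1B.3, and 5510.3 to 5752 and 5352 to 5589 in those labelled shARID1A/B.2.3 and shARID1A/B.4.2. ARID1B had 5791 to 5804 in Control and, in the same order, 2224 to 2252, 3065 to 3126, 4913 to 5056, 6038 to 6182, 2540.5 to 2651 and 1881 to 1955. The libraries labelled shARID1B thus had low ARID1A and ARID1B near Control, those labelled shARID1A/B had low ARID1B and ARID1A near Control, and those labelled shARID1A had both low. For shARID1B and shARID1A/B the measured targets are thus at odds with the label. Labels are kept here as written, each naming libraries, and no direction below can be tied to 1 of the genes. The libraries labelled shARID1A.2, shARID1B.2 and shARID1A/B.4.2 also stood apart in makeup: their 75th percentile of deposited values was 21.9 to 24.9 against 17.9 to 20.4 in the other 12, and their summed values were 31245800 to 32815053 against 34891114 to 35919784.

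Histone RNA in these poly(A)-selected libraries was highest in those labelled shARID1A.2 and lowest in those labelled shARID1B.3. Whether the reads came from transcripts with a poly(A) tail was not tested. Each deposited value holds the reads of a gene scaled by the size factor of the library, with no correction for gene length, so levels are not compared between genes. Summed over the 35 members, it was 1224 ± 27.7 (mean ± SD, n = 3 here and below) in Control, 3253 ± 83.5 in shARID1A.2 and 1206 ± 32.7 in shARID1A.4. The libraries labelled shARID1B.2 and shARID1B.3 held 2923 ± 77.9 and 854 ± 25.9, and those labelled shARID1A/B.2.3 and shARID1A/B.4.2 held 1870.1 ± 11.4 and 2395 ± 29.2. Within each label 1 shRNA set was well above the other, and the summed values of the 2 sets did not overlap. The sum in shARID1A.4 was 0.985 times that of Control, and their libraries overlapped. These sums were described without a test. In bulk RNA, fewer cells of a kind and less RNA per cell cannot be told apart.

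The 5 families did not move together. H2A reached the highest multiple of Control: its summed values were 144 ± 2.46 in Control and 692 ± 32.6 in shARID1A.2, or 4.80 times Control, and 3.38 times Control in shARID1B.2. H2B, which had the highest sum of the families in Control, stood at 578 ± 5.30 there and at 2.36 times this in shARID1A.2, 0.730 in shARID1A.4, 2.27 in shARID1B.2, 0.524 in shARID1B.3, 1.01 in shARID1A/B.2.3 and 1.63 in shARID1A/B.4.2. H3 was highest in shARID1B.2, at 3.70 times Control. H4 was the family that stood above Control in shARID1A.4, at 1.57 times, with H2A at 1.22 times. H1, at 84.7 ± 9.12 in Control, was higher in shARID1A.2 (114 to 130 over libraries) and shARID1B.2 (157 to 184). It was lower in shARID1B.3 (46.8 to 63.9) and shARID1A/B.4.2 (60.88 to 65.65). At 25.1 ± 11.5 in shARID1A.4 and 30.2 ± 4.53 in shARID1A/B.2.3, it was 0.297 and 0.357 times Control where H4 was at 1.57 and 2.37 times. These sums rest on few genes. H4C14 and H4C15 held 391 to 400 of 460 to 482 for H4 in shARID1A.4, and 187 to 235 of 279 to 318 in Control. H1-2 had a mean of 61.2 in Control. H2AC6 had means of 35.3 in Control and 395 in shARID1A.2, within H2A sums of 144 and 692, so much of that rise of H2A came from this gene.

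**Figure D1:**
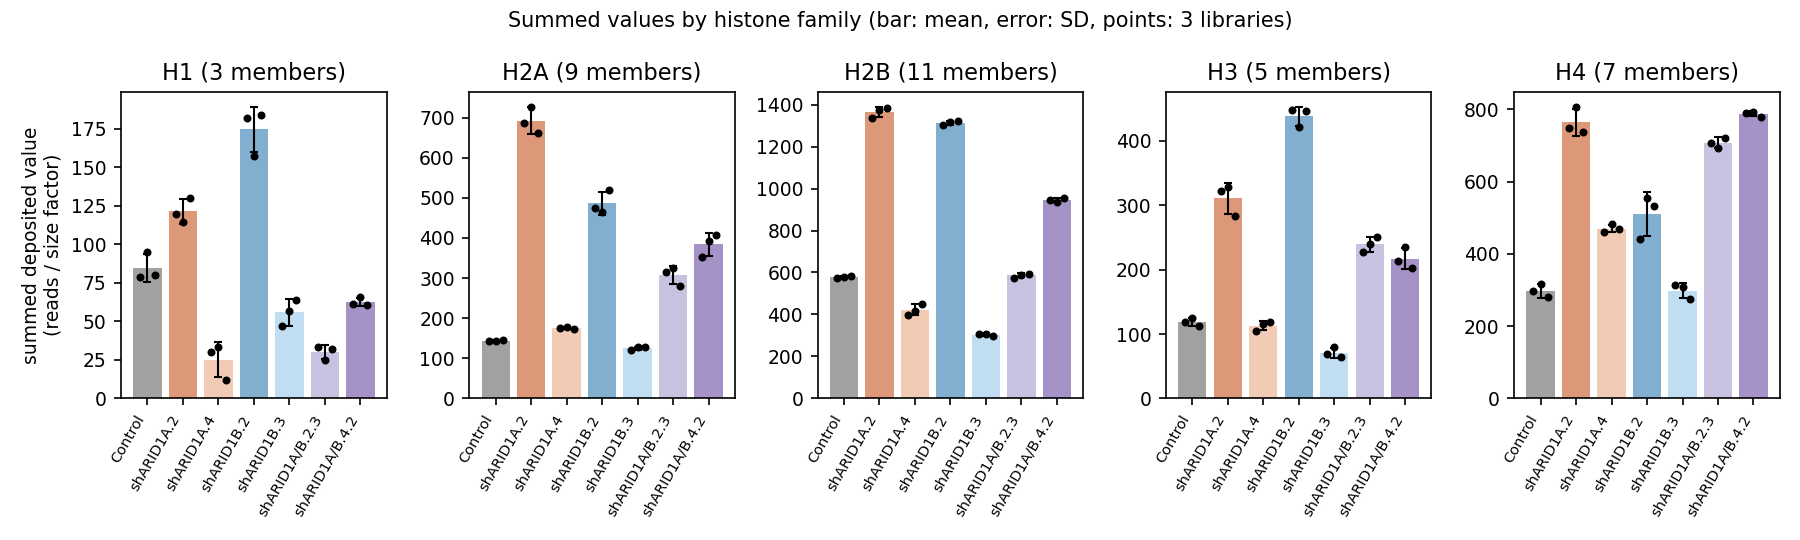
Summed deposited values (reads divided by the size factor, vertical axis, from 0) of the 35 members by family in the 7 conditions, as mean (bar), SD (error bar) and 3 libraries (points). H2A and H2B stand highest in shARID1A.2, H1 and H3 in shARID1B.2 and H4 in shARID1A/B.4.2.

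Each member was then compared with Control by a limma fit over all 18615 genes with a mean of 5 or more, and a gene was called at an adjusted p under 0.05. Most genes of the whole table were called in each comparison, so the counts of members are set beside the share of all genes called by the same rule. In shARID1A.2, 22 of 35 members were higher (37.6% of all genes were) and 4 lower (38.1%). A log2 fold change over 1 together with the call was reached by 19 members upwards (13.8% of all genes) and 3 downwards (10.7%). The median log2 fold change was 1.47 over the members and 0.02 over all genes. In shARID1A.4 the picture was another: 5 members were higher (37.0%) and 13 lower (36.5%), with 2 above a log2 fold change of 1 (9.31%), 8 below -1 (12%) and a median of -0.30. The share of members lower by over 1 was thus above the share of all genes in shARID1A.4, while the share called lower was close to it.

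In the libraries labelled shARID1B.2, 21 members were higher (31.3% of all genes) and 1 lower (33.9%), with 16 above a log2 fold change of 1 (6.61%) and a median of 1.17. The 21 and the 16 include H3C14 and H3C15, listed with identical values, which passed the mean limit of 5 only through this condition. No member was called lower by over 1 in limma (0 at an unadjusted p under 0.05 and 0 by edgeR or DESeq2, against 5.03% of all genes called). With shARID1B.3 the order turned, with 1 member higher (31.8%) and 10 lower (31.9%), 5 of them by over 1 (6.53%), and a median of -0.07. The members called lower were about as frequent there as among all genes. None was called higher by over 1 in limma (0 at an unadjusted p under 0.05 and 0 by edgeR or DESeq2, against 5.18% of all genes called).

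In the libraries labelled shARID1A/B.2.3, 9 members were higher (35.1%) and 9 lower (33.9%), with 7 above a log2 fold change of 1 (6.98%), 6 below -1 (9.01%) and a median of -0.04. In those labelled shARID1A/B.4.2, 18 were higher (34.8%) and 2 lower (36.0%), with 10 above 1 (9.98%), 2 below -1 (8.07%) and a median of 0.68. The 6 comparisons share the 3 Control libraries. No member was higher in all 6, and 1, H2BC9, was lower in all 6. H2AC17, H4C9, H4C11 and H4C12 were called in none of the 6. The share of all genes that met these rules over all 6 is not given here, so nothing is read from these counts. Over these and the 3 direct comparisons below, 40 of 179 calls were lost when some single library was left out, and no fold change turned its sign. Of the 78 calls on the 10 members with a mean of 50 or more, 6 were lost in this way.

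**Figure D2:**
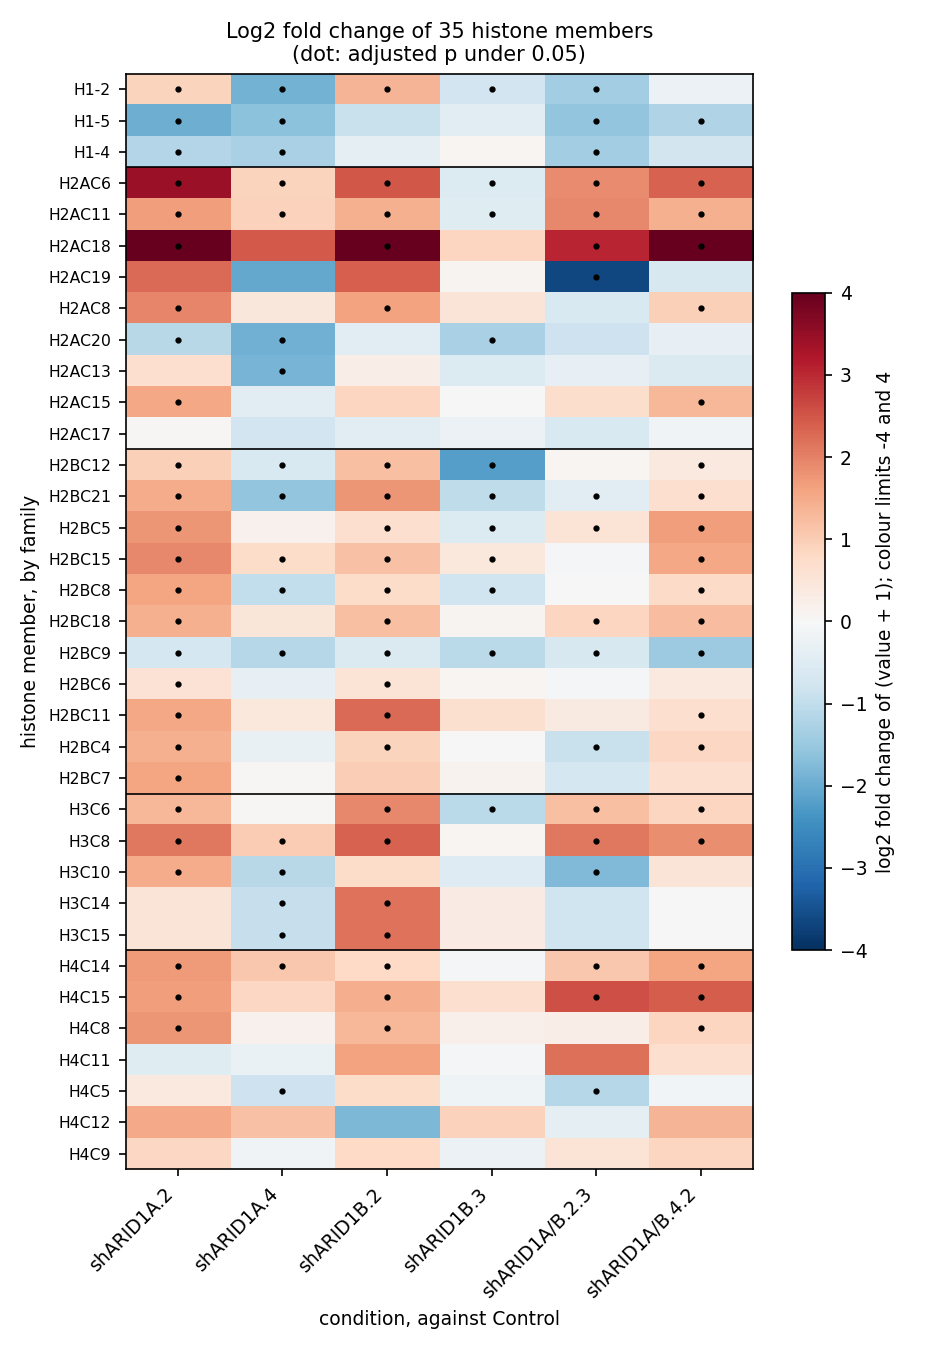
Log2 fold change of the deposited value + 1 against Control (colour, limits -4 and 4) for the 35 members (rows, by family and then by mean value) in 6 conditions (columns), with a dot where adjusted p is under 0.05. H2AC19 is at 0 in all 3 shARID1A/B.2.3 libraries, so its colour there is set by the pseudocount, and the same holds for H4C12 in shARID1B.2.

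H2AC6 encodes a copy of H2A and lies on chromosome 6 (chr6:26124145-26139116). Its values were 34.1, 35.8 and 35.95 in Control, 401, 403 and 382 in shARID1A.2 and 60.2, 57.1 and 82.8 in shARID1A.4. They were 198, 191 and 219.6 in shARID1B.2, 22.9, 22.8 and 25.04 in shARID1B.3, 129.6, 150.1 and 122 in shARID1A/B.2.3 and 187, 185 and 186 in shARID1A/B.4.2. Every silenced library except those labelled shARID1B.3 lay above every Control library, and those of shARID1B.3 all lay below. The log2 fold change was 3.45 ± 0.12 (SE), adjusted p = 2.10e-18 in shARID1A.2, the highest of the called members with a mean of at least 50, and 2.49 ± 0.12 (SE), adjusted p = 3.76e-15 in shARID1B.2. It was 2.37 ± 0.12 (SE), adjusted p = 6.22e-15 in shARID1A/B.4.2, 1.89 ± 0.12 (SE), adjusted p = 5.79e-13 in shARID1A/B.2.3, 0.88 ± 0.12 (SE), adjusted p = 4.94e-07 in shARID1A.4 and -0.56 ± 0.12 (SE), adjusted p = 2.71e-04 in shARID1B.3. Of the 9 H2A members, 5 were called higher and 1 lower in shARID1A.2, 3 and 1 in shARID1A/B.2.3 and 2 and 2 in shARID1A.4. The calls were 4 higher in shARID1B.2, 5 higher in shARID1A/B.4.2 and 3 lower in shARID1B.3. Over the 6 comparisons limma called 31.3% to 37.6% of all genes higher and 31.9% to 38.1% lower, and 3 of 9 members is close to these shares.

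H2AC11, another H2A gene, had log2 fold changes of 1.69 ± 0.19 (SE) in shARID1A.2, 1.92 ± 0.19 (SE) in shARID1A/B.2.3 and 1.41 ± 0.19 (SE) in shARID1B.2, all called. H2AC20 went the other way: its values were 12.9, 15.7 and 8.22 in Control and 2.91, 2.38 and 2 in shARID1A.4, where its log2 fold change was -1.92 ± 0.40 (SE), adjusted p = 1.38e-04. These are a few reads per library. H2AC20 was also called lower in shARID1B.3 (-1.31 ± 0.40 (SE), adjusted p = 0.0063) and in shARID1A.2, a call lost without Control replicate 2 (adjusted p = 0.066 there).

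H2BC12 encodes a copy of H2B (chr6:27146418-27146798, minus strand) and had the highest mean of all members. Its values were 256, 219 and 248 in Control, 465, 458 and 484 in shARID1A.2 and 144, 153 and 179.6 in shARID1A.4. Values of 549, 536 and 571 were found in shARID1B.2, 54.8, 47.5 and 52.7 in shARID1B.3, 243, 263 and 265 in shARID1A/B.2.3 and 318, 314 and 311 in shARID1A/B.4.2. The lowest library of shARID1B.2 was thus many times the highest of shARID1B.3, with Control between them. The log2 fold change was 1.19 ± 0.081 (SE), adjusted p = 2.44e-12 in shARID1B.2 and -2.20 ± 0.081 (SE), adjusted p = 1.56e-17 in shARID1B.3, the lowest of the called members with a mean of at least 50 there. It was 0.96 ± 0.081 (SE), adjusted p = 8.95e-11 in shARID1A.2, -0.60 ± 0.081 (SE), adjusted p = 3.63e-07 in shARID1A.4, 0.38 ± 0.081 (SE), adjusted p = 1.76e-04 in shARID1A/B.4.2 and 0.09 ± 0.081 (SE), adjusted p = 0.32 in shARID1A/B.2.3, where the libraries overlapped those of Control. Of its stretches of 50 bases, 74.1% also occur in transcripts of other genes, so its reads could be split with them.

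H2BC21, also an H2B gene, differed between the shRNA sets of each label. Its values were 102, 102 and 98.6 in Control, 284, 307 and 258 in shARID1A.2, 28.2, 27.4 and 45.9 in shARID1A.4, 344, 345 and 349 in shARID1B.2 and 48.8, 54.2 and 45.8 in shARID1B.3. In the libraries labelled shARID1A/B.2.3 and shARID1A/B.4.2 it had 76.95, 69.8 and 72 and 155, 164 and 164. It was called in all 6 comparisons, higher in shARID1A.2, shARID1B.2 and shARID1A/B.4.2 and lower in the other three.

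H2BC5 and H2BC15, both H2B genes, were called higher in shARID1A.2, shARID1B.2 and shARID1A/B.4.2. H2BC5 (chr6:26158146-26171349, plus strand) had 44.6, 58.2 and 51.4 in Control, 176, 183 and 168 in shARID1A.2, 61.2, 53.5 and 57.9 in shARID1A.4, 83.2, 90.3 and 75.6 in shARID1B.2, 30.9, 39.9 and 32.8 in shARID1B.3, 77.97, 65.7 and 82.7 in shARID1A/B.2.3 and 152, 171 and 174 in shARID1A/B.4.2. Its log2 fold change was 1.76 ± 0.13 (SE), adjusted p = 1.08e-11 in shARID1A.2, 1.68 ± 0.13 (SE), adjusted p = 3.55e-11 in shARID1A/B.4.2 and 0.69 ± 0.13 (SE), adjusted p = 7.88e-05 in shARID1B.2, while it fell in shARID1B.3 (-0.56 ± 0.13 (SE), adjusted p = 7.34e-04) and was 0.17 ± 0.13 (SE), adjusted p = 0.27 in shARID1A.4. H2BC15 (chr6:27837760-27865798, plus strand) had 32.9, 31.3 and 36.97 in Control, 127, 128 and 138 in shARID1A.2, 59.2, 55.9 and 53.9 in shARID1A.4, 80.5, 76.4 and 74.7 in shARID1B.2, 48.8, 47.5 and 40.6 in shARID1B.3, 31.4, 33.3 and 34.05 in shARID1A/B.2.3 and 92.9, 104 and 108 in shARID1A/B.4.2. It was the single member called higher in shARID1B.3 (0.42 ± 0.13 (SE), adjusted p = 0.0054), a call lost in DESeq2 (adjusted p = 0.092) and with only the 6 libraries compared (adjusted p = 0.065). In shARID1A.2 its log2 fold change was 1.93 ± 0.13 (SE), adjusted p = 6.99e-13. Its annotated gene spans H2AC15 on the opposite strand, and whether reads were counted by strand is not given in the sources used here.

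H2BC9 was the 1 member lower in every comparison (chr6:26251651-26253710, plus strand). Its values were 51.7, 48.1 and 43.1 in Control, 29.9, 36.05 and 22.3 in shARID1A.2, 24.3, 17.8 and 21.96 in shARID1A.4, 34.1, 35.9 and 24.9 in shARID1B.2, 23.9, 19 and 23.3 in shARID1B.3, 34.4, 33.3 and 24.3 in shARID1A/B.2.3 and 15.5, 17.8 and 16.9 in shARID1A/B.4.2. All 18 silenced libraries lay below all 3 of Control. The log2 fold change ranged from -1.46 ± 0.22 (SE), adjusted p = 1.94e-06 in shARID1A/B.4.2 to -0.59 ± 0.22 (SE), adjusted p = 0.021 in shARID1B.2. The call in shARID1B.2 was lost without Control replicate 1 (adjusted p = 0.067) or without shARID1B.2 replicate 3 (adjusted p = 0.12), and that in shARID1A/B.2.3 without its replicate 3 (adjusted p = 0.081). Calls of H2BC9 were also lost under alternatives other than leaving out a library, as counted in the closing section. None of the stretches of 50 bases of H2BC9 occurs in another gene (0%).

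H2BC8 and H2BC18 had log2 fold changes of 1.59 ± 0.22 (SE) and 1.43 ± 0.24 (SE) in shARID1A.2, both called, and differed in shARID1A.4, where H2BC8 fell (-0.97 ± 0.22 (SE), adjusted p = 4.31e-04) and H2BC18 had 0.49 ± 0.24 (SE), adjusted p = 0.07. H2BC11 rose most in shARID1B.2 (2.25 ± 0.28 (SE), adjusted p = 1.39e-07). H2BC4, H2BC6 and H2BC7, with means of 17.3, 24.3 and 6.12 over all libraries, had log2 fold changes of 1.43 ± 0.35 (SE), 0.59 ± 0.24 (SE) and 1.58 ± 0.61 (SE) in shARID1A.2. All 3 were called, and those of H2BC6 and H2BC7 were lost without single libraries. For H2BC6 these were Control replicate 3 (0.35, adjusted p = 0.21) and shARID1A.2 replicates 1 and 3 (adjusted p = 0.051 and 0.17). For H2BC7 they were Control replicate 1 (1.06, adjusted p = 0.15) and shARID1A.2 replicate 3 (adjusted p = 0.092).

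Of the 11 H2B members, 10 were called higher and 1 lower in shARID1A.2, 9 and 1 in shARID1B.2, 8 and 1 in shARID1A/B.4.2, 2 and 3 in shARID1A/B.2.3, 1 and 4 in shARID1A.4 and 1 and 5 in shARID1B.3. The share of all genes called was 31.3% to 37.6% higher and 31.9% to 38.1% lower over these comparisons, so the counts in shARID1A/B.2.3, shARID1A.4 and shARID1B.3 were near or below it in both directions, except for the 5 of 11 lower in shARID1B.3. The 1 that was lower in shARID1A.2, shARID1B.2 and shARID1A/B.4.2 was H2BC9 each time.

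H3C6 encodes a copy of H3 (chr6:26224199-26227473, plus strand) and carried most reads of its family. Its values were 81.04, 89.5 and 86.3 in Control, 222, 228 and 200.4 in shARID1A.2 and 80.6, 93.9 and 88.8 in shARID1A.4. They reached 314, 323 and 341 in shARID1B.2 and stood at 44.8, 44.7 and 31.9 in shARID1B.3, 181, 201 and 214 in shARID1A/B.2.3 and 150.3, 171 and 149.8 in shARID1A/B.4.2. The libraries of shARID1A.4 overlapped those of Control, and every other condition was separate from it. The log2 fold change was 1.92 ± 0.12 (SE), adjusted p = 2.32e-13 in shARID1B.2 and -1.08 ± 0.12 (SE), adjusted p = 1.19e-08 in shARID1B.3, 1.33 ± 0.12 (SE), adjusted p = 1.52e-10 in shARID1A.2, 1.20 ± 0.12 (SE), adjusted p = 1.17e-09 in shARID1A/B.2.3 and 0.87 ± 0.12 (SE), adjusted p = 3.30e-07 in shARID1A/B.4.2. H3C8 rose in 5 of the 6 conditions, from 1.004 ± 0.31 (SE), adjusted p = 0.0062 in shARID1A.4, a call lost without Control replicate 3 (log2 fold change 0.58, adjusted p = 0.081), to 2.36 ± 0.31 (SE), adjusted p = 4.26e-07 in shARID1B.2. H3C10 rose in shARID1A.2 (1.47 ± 0.39 (SE), adjusted p = 0.0017) and fell in shARID1A.4 (-1.10 ± 0.39 (SE), adjusted p = 0.015) and in shARID1A/B.2.3 (-1.76 ± 0.39 (SE), adjusted p = 3.47e-04, or -1.02 without its replicate 3).

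H4C14 and H4C15 encode the same H4 protein from near-identical genes on chromosome 1 (chr1:149832659-149839767 and chr1:149854045-149861210), and 97.5% and 97.2% of their stretches of 50 bases are shared. H4C14 had 204, 158 and 82.2 in Control, 474, 445 and 454 in shARID1A.2, 239, 321 and 339 in shARID1A.4, 189.9, 329 and 218 in shARID1B.2, 148, 161 and 93.3 in shARID1B.3, 241, 289 and 361 in shARID1A/B.2.3 and 452, 400.1 and 399.9 in shARID1A/B.4.2. H4C15 had 14.1, 77.2 and 105 in Control, 117, 229.7 and 145 in shARID1A.2, 152, 72.5 and 60.9 in shARID1A.4, 139, 104 and 169.8 in shARID1B.2, 67.7, 61.8 and 118 in shARID1B.3, 332, 326 and 247 in shARID1A/B.2.3 and 239, 279.6 and 287 in shARID1A/B.4.2. In Control and shARID1A.4, a library that was low for one was high for the other. Taken alone, H4C15 had log2 fold changes of 2.59 ± 0.45 (SE), adjusted p = 1.78e-05 in shARID1A/B.2.3, 2.43 ± 0.45 (SE), adjusted p = 3.99e-05 in shARID1A/B.4.2, 1.66 ± 0.45 (SE), adjusted p = 0.0019 in shARID1A.2 and 1.44 ± 0.45 (SE), adjusted p = 0.0071 in shARID1B.2, which without Control replicate 1 were 1.72, 1.56, 0.80 and 0.58, the last with an adjusted p of 0.11. H4C14 alone had 1.72 ± 0.24 (SE), adjusted p = 6.52e-07 in shARID1A.2, 1.58 ± 0.24 (SE), adjusted p = 2.62e-06 in shARID1A/B.4.2, 1.09 ± 0.24 (SE), adjusted p = 2.68e-04 in shARID1A.4 (0.72 without Control replicate 3), 1.08 ± 0.24 (SE), adjusted p = 3.52e-04 in shARID1A/B.2.3 (0.70 without it) and 0.78 ± 0.24 (SE), adjusted p = 0.0065 in shARID1B.2 (0.41 without it, adjusted p = 0.099, and 0.55 without shARID1B.2 replicate 2, adjusted p = 0.064).

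The 2 copies were therefore also summed, a choice made after the values were seen. Their sum was 213 ± 24.4 in Control, 622 ± 46.2 in shARID1A.2, 395 ± 4.58 in shARID1A.4, 383 ± 52.1 in shARID1B.2, 217 ± 5.41 in shARID1B.3, 599 ± 22.4 in shARID1A/B.2.3 and 686 ± 5.41 in shARID1A/B.4.2. In the same fit with the sum in place of H4C14 and H4C15, the log2 fold change was 1.54 ± 0.081 (SE), adjusted p = 7.33e-15 in shARID1A.2, 0.89 ± 0.081 (SE), adjusted p = 3.65e-10 in shARID1A.4 and 0.84 ± 0.081 (SE), adjusted p = 1.74e-09 in shARID1B.2. It was 0.03 ± 0.081 (SE), adjusted p = 0.79 in shARID1B.3, 1.49 ± 0.081 (SE), adjusted p = 1.96e-14 in shARID1A/B.2.3 and 1.69 ± 0.081 (SE), adjusted p = 1.59e-15 in shARID1A/B.4.2. H4 from this pair was thus higher in 5 conditions, shARID1A.4 included, with a smaller error than for either copy.

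H2AC18 and H2AC19 (chr1:149842188-149842736 and chr1:149851061-149851624), with 100% and 97.1% of their stretches of 50 bases shared, traded reads more sharply. H2AC18 was listed at 0, 0 and 34.9 and H2AC19 at 42.3, 44.8 and 0 in the 3 Control libraries, and H2AC19 at 0 in all 3 libraries of shARID1A/B.2.3, where H2AC18 had 21.3, 27.1 and 32.1. Their sum was 40.7 ± 5.12 in Control, 134 ± 10.7 in shARID1A.2 and 149 ± 10.6 in shARID1B.2. The log2 fold change of the sum of H2AC18 and H2AC19 was 1.70 ± 0.18 (SE), adjusted p = 5.92e-09 in shARID1A.2, 1.86 ± 0.18 (SE), adjusted p = 1.99e-09 in shARID1B.2, 0.78 ± 0.18 (SE), adjusted p = 4.63e-04 in shARID1A/B.4.2, -0.59 ± 0.18 (SE), adjusted p = 0.0054 in shARID1A/B.2.3 and -0.45 ± 0.18 (SE), adjusted p = 0.03 in shARID1A.4. The call of H2AC18 alone as higher in shARID1A/B.2.3 was not kept by the sum, which was lower.

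H4C8, an H4 member with 0% of its stretches shared, rose in shARID1A.2 (1.76 ± 0.25 (SE), adjusted p = 7.54e-07), shARID1B.2 (1.31 ± 0.25 (SE), adjusted p = 5.90e-05) and shARID1A/B.4.2 (0.87 ± 0.25 (SE), adjusted p = 0.0034). In shARID1A.4, where the sum of H4C14 and H4C15 rose, H4C8 had 0.18 ± 0.25 (SE), adjusted p = 0.52. H4C5 went the other way in shARID1A/B.2.3 (-1.15 ± 0.36 (SE), adjusted p = 0.006), a call lost without its replicate 2 (-0.69, adjusted p = 0.074). The low H2A members H2AC8 and H2AC15 rose in shARID1A.2 (1.96 ± 0.43 (SE) and 1.55 ± 0.49 (SE), both called), and H2AC13 fell in shARID1A.4 (-1.85 ± 0.55 (SE), adjusted p = 0.004).

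H4C11 and H4C12 showed the same exchange as H2AC18 and H2AC19, and their sum, 45.3 ± 7.98 in Control and 66.05 ± 15.5 in shARID1A/B.2.3, was called in no comparison with Control (in shARID1A/B.2.3, log2 fold change 0.52 ± 0.24 (SE), adjusted p = 0.061). H3C14 and H3C15 were listed with identical values in every library, so they are 1 measurement. Their sum was 8.17 ± 1.76 in Control and 44.4 ± 10.5 in shARID1B.2, where its log2 fold change with H3C14 standing for both was 2.30 ± 0.37 (SE), adjusted p = 5.93e-06. Each copy had a mean of 22.2 in shARID1B.2 and of 1.71 to 6.13 in the other conditions. The copies passed the limit of 5 only through shARID1B.2, so nothing is read from their rise there. With all 4 pairs summed, 31 units remained, to be read against the shares of all genes given above for each comparison, of which 21 were higher and 4 lower in shARID1A.2, 5 and 13 in shARID1A.4, 19 and 1 in shARID1B.2, 1 and 10 in shARID1B.3, 7 and 10 in shARID1A/B.2.3 and 17 and 2 in shARID1A/B.4.2.

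**Figure D3:**
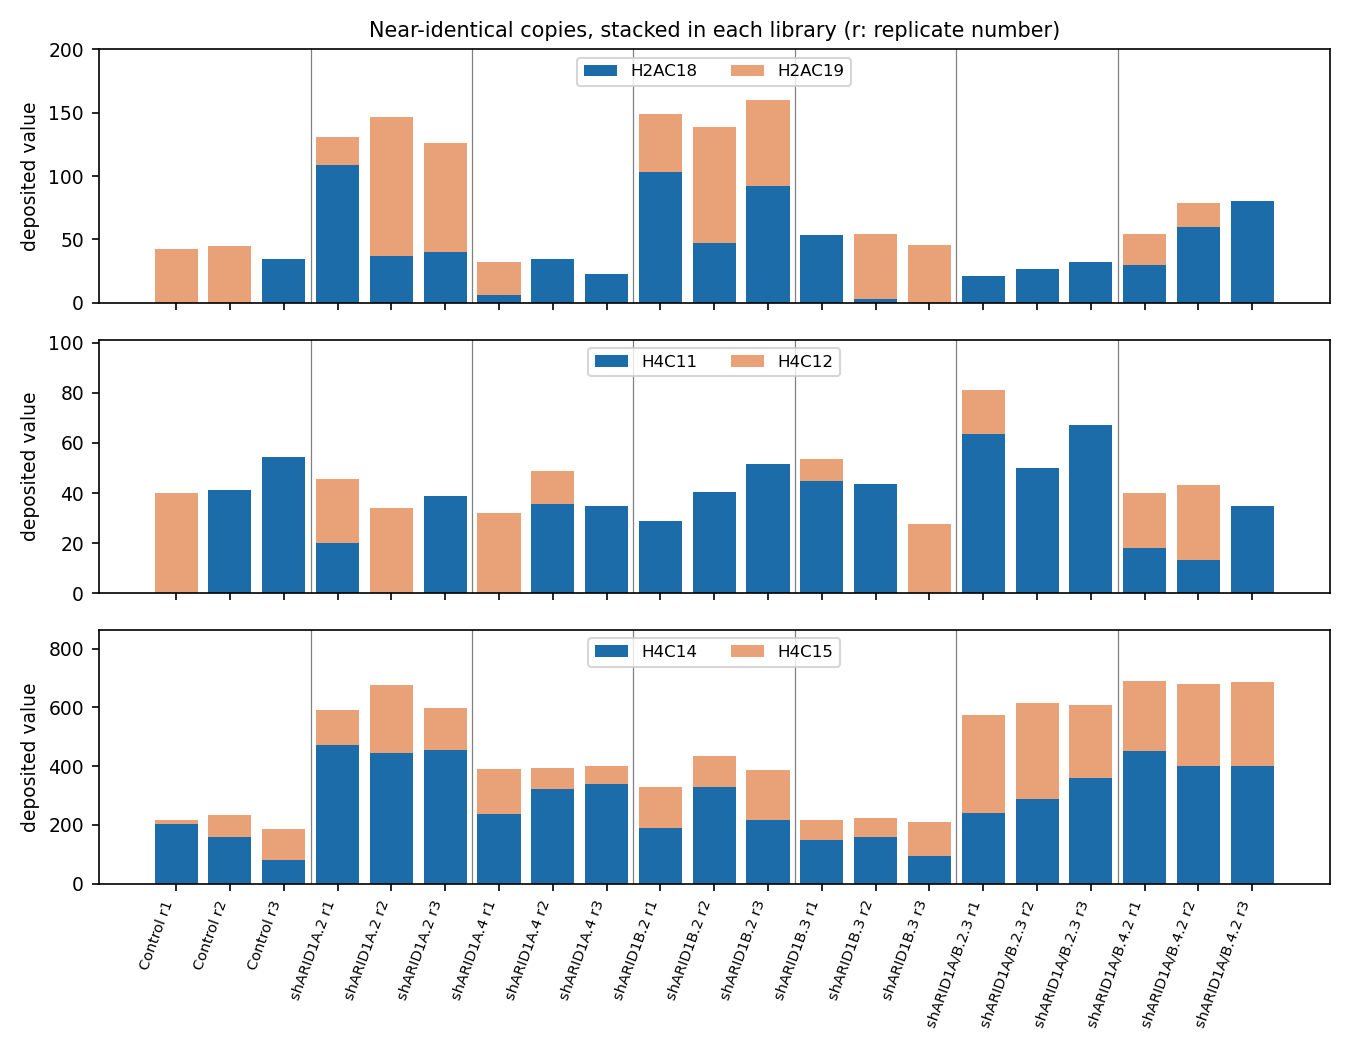
Deposited values of 3 pairs of near-identical genes stacked in each of the 21 libraries (horizontal axis, with r for the replicate number). The share of each copy moves between replicates of a condition, while the height of the stack moves less, as in Control, where H2AC18 is at 0 in replicates 1 and 2 and H2AC19 in replicate 3.

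H1-2 encodes a linker histone (chr6:26055787-26056428, minus strand), and no stretch of 50 bases of it occurs in another gene. Its values were 59.9, 67.2 and 56.5 in Control, 111, 111 and 122 in shARID1A.2 and 16.5, 26.2 and 8.98 in shARID1A.4. In the libraries labelled shARID1B.2 it had 172, 140.1 and 169.8, and in those of shARID1B.3, shARID1A/B.2.3 and shARID1A/B.4.2 it had 30.9, 37.1 and 39.7, 28.4, 17.7 and 23.4 and 52.8, 56.4 and 46.8. All libraries of shARID1A.2 and shARID1B.2 were above Control, and all others below. The log2 fold change was 0.90 ± 0.24 (SE), adjusted p = 0.0016 in shARID1A.2, the lowest rise among called members with a mean of 50 or more there, and 1.37 ± 0.24 (SE), adjusted p = 1.90e-05 in shARID1B.2. It was -1.88 ± 0.24 (SE), adjusted p = 1.29e-07 in shARID1A.4, -1.39 ± 0.24 (SE), adjusted p = 1.45e-05 in shARID1A/B.2.3 and -0.76 ± 0.24 (SE), adjusted p = 0.0077 in shARID1B.3, and -0.23 ± 0.24 (SE), adjusted p = 0.40 in shARID1A/B.4.2, which was not called.

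H1-5 and H1-4, linker histones with few reads, were not called higher in any comparison with Control. H1-5 had 9.40, 21.3 and 13.3 in Control and 4.15, 1.03 and 4.45 in shARID1A.2, with a log2 fold change of -1.96 ± 0.52 (SE), adjusted p = 0.0016. It was also called lower in shARID1A.4, shARID1A/B.2.3 and shARID1A/B.4.2, and each of these 3 calls was lost without 1 library: without shARID1A.4 replicate 3 (adjusted p = 0.083), without Control replicate 2 or shARID1A/B.2.3 replicate 1 (adjusted p = 0.054 and 0.060) and without Control replicate 2 or 3 or shARID1A/B.4.2 replicate 1 or 2 (adjusted p = 0.16, 0.069, 0.10 and 0.099). H1-4 had 9.40, 6.72 and 10.3 in Control, and its log2 fold change was -1.40 ± 0.42 (SE), adjusted p = 0.0047 in shARID1A/B.2.3, -1.31 ± 0.42 (SE), adjusted p = 0.0071 in shARID1A.4 and -1.17 ± 0.42 (SE), adjusted p = 0.014 in shARID1A.2, the last lost without Control replicate 3 or shARID1A.2 replicate 2 (adjusted p = 0.050 and 0.076).

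**Figure D4:**
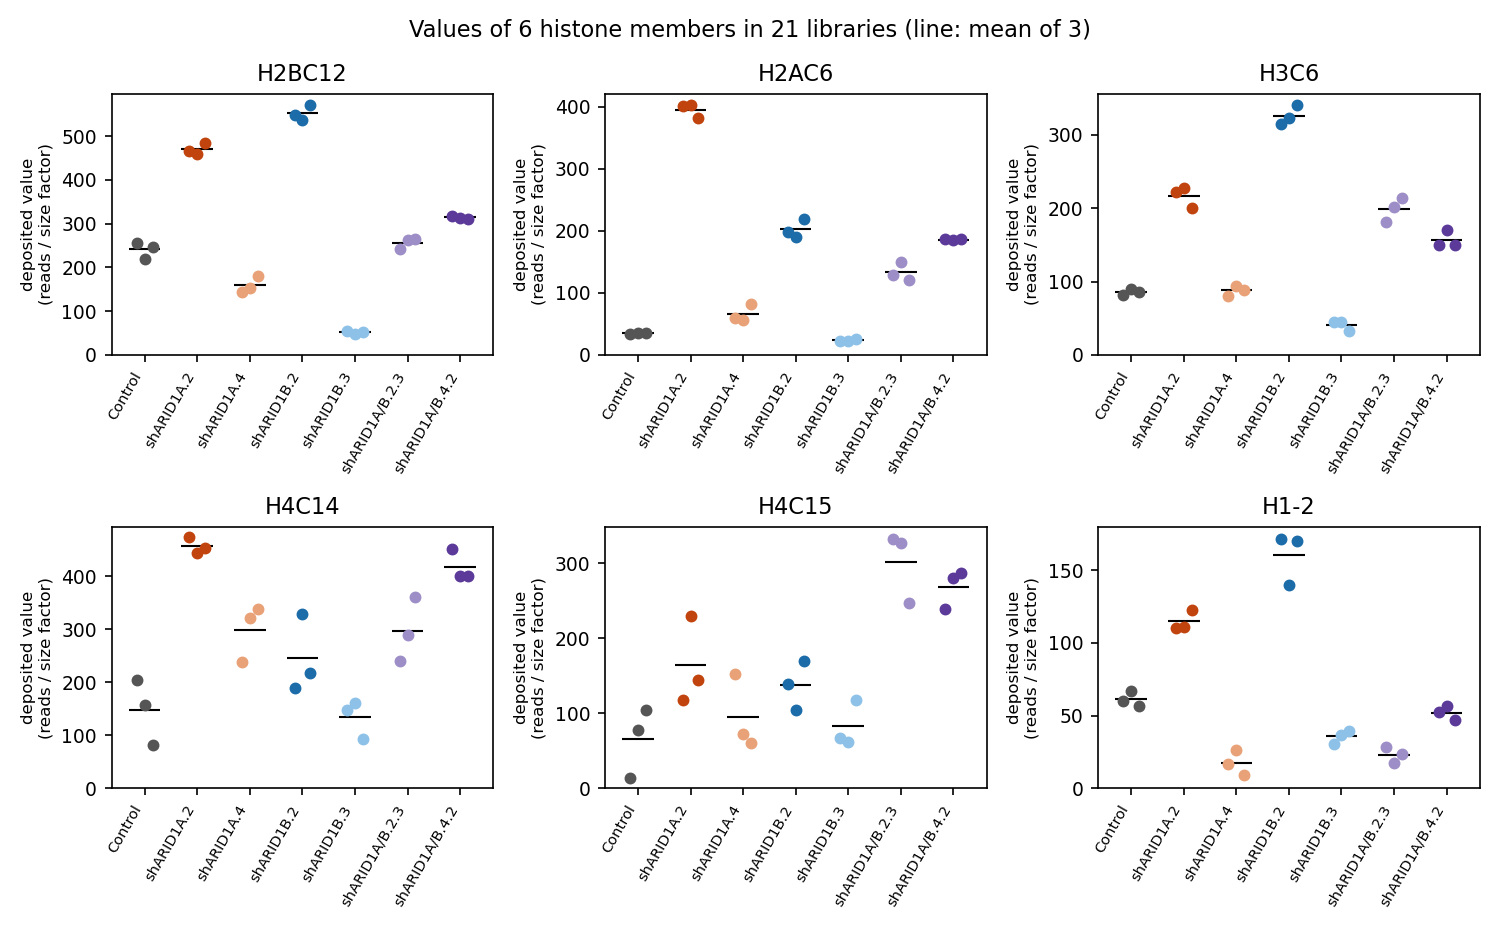
Deposited values (reads divided by the size factor, vertical axes from 0) of 6 members in the 21 libraries of 7 conditions, with a line at the mean of 3 libraries. H2BC12, H2AC6 and H3C6 separate shARID1B.2 (highest or second) from shARID1B.3 (lowest), and H4C14 and H4C15 vary most between replicates.

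The annotated 3' end differed between members. In GENCODE release 29, 19 kept members had a transcript running over 100 bases past a stem-loop, and all 19 members of this kind were kept. A transcript that ended within 100 bases of the stem-loop was the longest such form in 8 members, of which 6 were kept, and 34 members, of which 8 were kept, had models ending within 100 bases of the stop codon with no stem-loop. A further 2 kept members, H2AC11 and H2BC11, ran on without one, and 2 members were not in this release. Longer models can collect more reads, and the annotation release the authors counted on is not given in the sources used here. Among the 19 members with long models, 14 were called higher and 1 lower in shARID1A.2 (median log2 fold change 1.47), 14 and 1 in shARID1B.2 (1.17), 11 and 1 in shARID1A/B.4.2 (0.83), 6 and 5 in shARID1A/B.2.3 (-0.03), 4 and 7 in shARID1A.4 (-0.15) and 1 and 5 in shARID1B.3 (-0.02). Among the 8 kept members with short models and no stem-loop, the counts were 3 and 3 in shARID1A.2 (0.47), 2 and 1 in shARID1A/B.4.2 (-0.18), 2 higher in shARID1B.2 (-0.39), 3 lower in shARID1A/B.2.3 (-0.71), 5 lower in shARID1A.4 (-1.04) and 3 lower in shARID1B.3 (-0.32). In shARID1A.2, 37.6% of all genes were higher and 38.1% lower, and 3 of 8 each way is at that share. The ranges over the 6 comparisons were 31.3% to 37.6% higher and 31.9% to 38.1% lower. These 8 include the 3 H1 members, and the difference between the kinds was not tested.

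Many H2A and H2B genes stand head to head over a shared upstream region, and 5 such pairs had both genes kept, with 193 to 247 bases between the RefSeq starts. Of 30 pair and condition combinations, both genes were called in 15, in the same direction in 13 and in opposite directions in 2. With 31.3% to 37.6% of all genes higher and 31.9% to 38.1% lower in these comparisons, calls of both genes are frequent among all genes too, and nothing is read from the 15. H2BC11 and H2AC11 rose together in shARID1A.2 (1.56 and 1.69 on the log2 scale) and in shARID1B.2 (2.25 and 1.41). H2BC4 and H2AC6, whose shared region is printed above from the side of H2AC6, rose together in shARID1A.2 (1.43 and 3.45) but split in shARID1A/B.2.3, where H2BC4 had -0.89 ± 0.35 (SE), adjusted p = 0.028 and H2AC6 had 1.89. That call of H2BC4 was lost without Control replicate 2 (adjusted p = 0.097) or 3 (0.061) and without replicate 1 (0.083) or 3 (0.15) of its own. In the other split, H2BC21 rose and H2AC20 fell in shARID1A.2 (1.48 and -1.12).

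The 2 shRNA sets of each label were compared directly in the same fit. Against shARID1A.2, shARID1A.4 had 26 of 35 members lower (37.9% of all genes were) and 0 higher (37.3%), with a median log2 fold change of -1.29. No member was higher at an unadjusted p under 0.05 in limma, and 0 were called higher by edgeR or DESeq2. Against shARID1B.2, shARID1B.3 had 22 members lower (32.7%) and 0 higher (33.0%), again 0 at an unadjusted p under 0.05 and 0 by edgeR or DESeq2, with a median of -1.10. The 22 include H3C14 and H3C15, which passed the mean limit of 5 only through shARID1B.2. With only the 6 libraries compared, H4C12, whose reads are shared with H4C11, was called higher (adjusted p = 0.032), and so it was without shARID1B.3 replicate 2 (adjusted p = 0.045). Against shARID1A/B.2.3, shARID1A/B.4.2 had 13 members higher (37.4%) and 3 lower (37.0%) with a median of 0.59, or 17 and 1 when values were scaled to total reads. H2BC21 had a direct difference of -3.07 ± 0.14 (SE) on the log2 scale between the shARID1A sets, -2.78 ± 0.14 (SE) between the shARID1B sets and 1.13 ± 0.14 (SE) between the shARID1A/B sets, each in the direction of the set with the higher 75th percentile. In each label the set with more of the members' RNA had the higher percentile and the lower summed value over all genes, and the part of library makeup in the difference was not tested. Scaling to total reads moved the median of all genes against Control to 0.18 in shARID1A.2, 0.14 in shARID1B.2 and 0.20 in shARID1A/B.4.2, with 23, 23 and 20 members called higher.

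SLBP, the protein that binds the stem-loop, was low in the conditions with the highest sums of members and in others. It had values of 3050.3 to 3192 in Control, 931 to 1007 in shARID1A.2, 2529.8 to 2597 in shARID1A.4, 2083 to 2212 in shARID1B.2, 3096 to 3182 in shARID1B.3, 2218 to 2265 in shARID1A/B.2.3 and 902 to 976 in shARID1A/B.4.2. Its log2 fold change was -1.69 ± 0.034 (SE), adjusted p = 2.28e-23 in shARID1A.2, -1.74 ± 0.034 (SE), adjusted p = 1.74e-23 in shARID1A/B.4.2, -0.55 ± 0.034 (SE), adjusted p = 3.36e-13 in shARID1B.2 and -0.48 ± 0.034 (SE), adjusted p = 3.76e-12 in shARID1A/B.2.3. It was -0.29 ± 0.034 (SE), adjusted p = 3.81e-08 in shARID1A.4 and 0.01 ± 0.034 (SE), adjusted p = 0.85 in shARID1B.3, where the members' sums were also lowest of the silenced conditions. The lowest mean of SLBP was in shARID1A/B.4.2, which had the third highest sum of the members. NPAT, the coactivator of histone gene transcription, was lower in all 6 conditions, from -0.85 ± 0.031 (SE), adjusted p = 6.19e-18 in shARID1A.2 to -0.36 ± 0.031 (SE), adjusted p = 2.36e-10 in shARID1B.2. Whether SLBP or NPAT had a part in the members' values was not tested.

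Of 31 genes of histone messenger RNA transcription and processing, 22 were called lower and 3 higher in shARID1A.2 (median log2 fold change -0.45), 19 and 7 in shARID1A.4 (-0.21), 23 and 7 in shARID1B.2 (-0.21), 14 and 8 in shARID1B.3 (-0.03), 21 and 6 in shARID1A/B.2.3 (-0.28) and 24 and 4 in shARID1A/B.4.2 (-0.31). Of all genes, 38.1% were lower and 37.6% higher in shARID1A.2, and 31.9% and 31.8% in shARID1B.3. The largest changes were those of CCNE2, a cyclin that with CDK2 drives entry into S phase (-2.43 ± 0.07 (SE) in shARID1A.2), and of the small nuclear ribonucleoprotein cores SNRPB (-2.42 ± 0.027 (SE) in shARID1B.2) and SNRPD3 (-2.20 ± 0.026 (SE) in shARID1A/B.2.3). Of 20 histone chaperones, 17 were lower and 2 higher in shARID1A.2 (median -0.63), 15 and 5 in shARID1A.4 (-0.62), 16 and 3 in shARID1B.2 (-0.38), 9 and 5 in shARID1B.3 (-0.07), 15 and 5 in shARID1A/B.2.3 (-0.56) and 17 and 1 in shARID1A/B.4.2 (-0.62). Over the 6 comparisons 31.9% to 38.1% of all genes were lower and 31.3% to 37.6% higher. They include MCM2, a subunit of the replicative helicase that also binds H3 and H4 (-2.10 ± 0.026 (SE) in shARID1A/B.4.2), and ASF1B, which hands on H3 and H4 (-1.96 ± 0.039 (SE) in shARID1A.4).

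The 43 genes of the S-phase list of Seurat fell while the clustered histone genes rose in several conditions. All 43 were called lower in shARID1A.2, shARID1A.4, shARID1A/B.2.3 and shARID1A/B.4.2, with median log2 fold changes of -1.08, -1.11, -1.10 and -0.94. Of all genes, 38.1%, 36.5%, 33.9% and 36.0% were called lower in these conditions. In shARID1B.2, 42 were lower and 1 higher (-0.58), where 33.9% and 31.3% of all genes were. In shARID1B.3, 24 were lower and 6 higher (-0.13), where 31.9% and 31.8% of all genes were. The members' medians were 1.47 in shARID1A.2, -0.30 in shARID1A.4, 1.17 in shARID1B.2, -0.07 in shARID1B.3, -0.04 in shARID1A/B.2.3 and 0.68 in shARID1A/B.4.2. Whether the S-phase genes and the members' values are linked was not tested. CCNE2 (-2.43 ± 0.07 (SE) in shARID1A.2), TYMS, which makes thymidylate (-2.28 ± 0.042 (SE) in shARID1A.4), and USP1, a deubiquitinase of DNA repair (-2.16 ± 0.039 (SE) in shARID1A.4), changed the most.

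**Figure D5:**
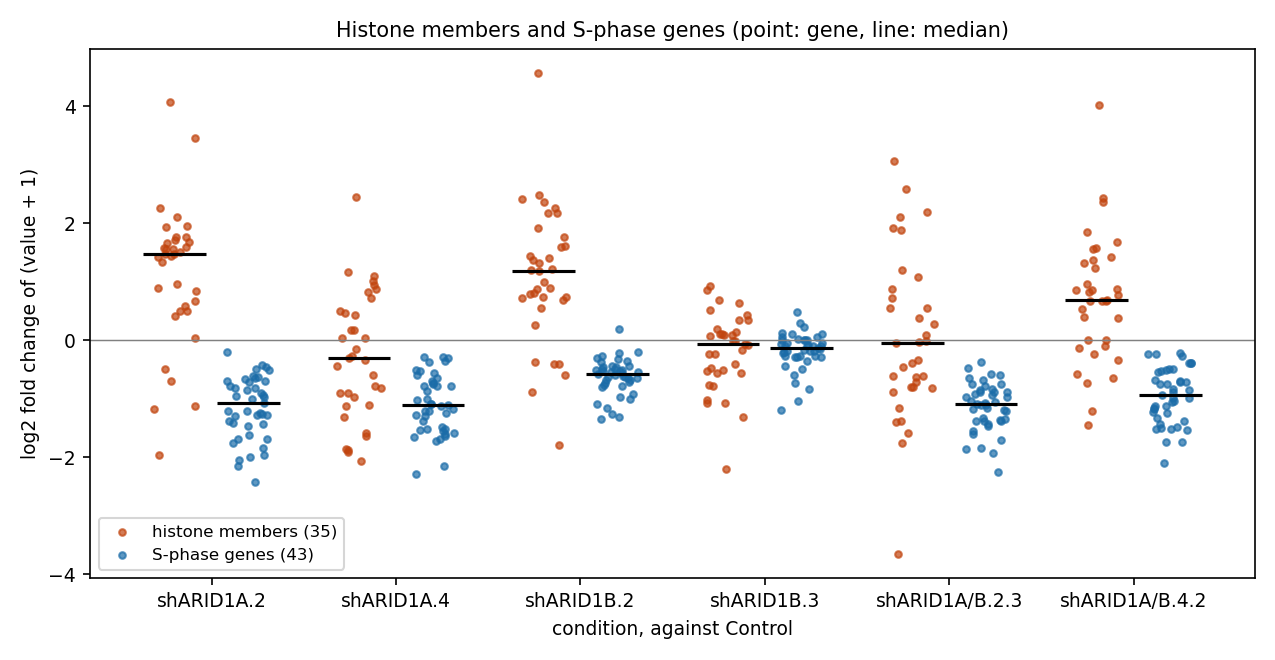
Log2 fold change of the deposited value + 1 against Control (vertical axis) of each of the 35 histone members and the 43 S-phase genes in 6 conditions (horizontal axis), with a line at each median. S-phase medians lie below 0 in every condition, while the members' medians reach 1.47 in shARID1A.2 and -0.30 in shARID1A.4. The lowest histone point in shARID1A/B.2.3 is H2AC19, at 0 in those 3 libraries.

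The 11 histone variants outside the clusters, whose transcripts are polyadenylated as a rule, fell with the S-phase genes. Of these, 10 were lower in shARID1A.2 (median log2 fold change -0.72), 11 in shARID1A.4 (-0.79), 11 in shARID1A/B.2.3 (-0.72) and 8 in shARID1B.2 (-0.19). In shARID1A/B.4.2, 10 were lower and 1 higher (-0.53), and in shARID1B.3, 6 were lower and 2 higher (-0.07), beside 31.9% to 38.1% of all genes lower and 31.3% to 37.6% higher over the 6 comparisons. Examples are H1-10, a linker variant (-1.89 ± 0.06 (SE) in shARID1A/B.2.3), and H2AZ1, the H2A.Z variant (-1.83 ± 0.024 (SE) in shARID1A/B.4.2).

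RNAs that carry no poly(A) tail were measured for comparison. Of 25 rows, 9 reached the mean of 5. Limma called 2 of these lower in shARID1A.2, 1 lower in shARID1B.2 and 4 lower in shARID1A/B.4.2. It called 1 higher in shARID1A.4 and 1 higher in shARID1A/B.2.3, and no other was called. Of all genes, 38.1%, 33.9% and 36.0% were lower in shARID1A.2, shARID1B.2 and shARID1A/B.4.2. In shARID1A.4 and shARID1A/B.2.3, 37.0% and 35.1% of all genes were higher. The 4 of 9 lower in shARID1A/B.4.2 were thus above the share of all genes, and the other counts were below it. The summed values of the 25 rows were 2214.5 to 2522 in shARID1A.2, 2715 to 3185 in shARID1B.2 and 2250.0 to 2430.5 in shARID1A/B.4.2, against 2880.0 to 4055 in the other conditions. RN7SL1, the RNA of the signal recognition particle, fell in shARID1A.2 (-0.68 ± 0.073 (SE), adjusted p = 8.52e-09), in shARID1B.2 (-0.29 ± 0.073 (SE), adjusted p = 0.0014) and in shARID1A/B.4.2 (-0.61 ± 0.073 (SE), adjusted p = 6.59e-08). SCARNA13, a small Cajal body RNA, was higher in shARID1A/B.2.3 (2.38 ± 0.67 (SE), adjusted p = 0.0029), and RPPH1, the RNA of RNase P, was lower in shARID1A/B.4.2 (-0.57 ± 0.21 (SE), adjusted p = 0.02). RN7SL1 was thus lower in shARID1A.2, shARID1B.2 and shARID1A/B.4.2, where most called members were higher, and the part of poly(A) selection or library makeup in the members' values was not tested.

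Over the 7 condition means of log2 values, the genes outside the clusters most like the mean of the 35 members were DDTL, a relative of the cytokine-like enzyme DDT (Pearson's r = 0.993), the long noncoding RNA AL031123.2 (0.987), PTOV1 (0.987), USPL1, a SUMO protease of Cajal bodies (0.986), and SSR2, a subunit of the translocon-associated complex (0.986). These 5 were picked from all genes by this measure, over 7 points that share the same libraries, and are given as a description.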

How the data were processed

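The authors sequenced poly(A)-selected RNA and deposited 1 value per gene and library for 60728 rows. The submitters' processing notes name STAR 2.5.3a, RSEM 1.3.0, DESeq2 1.26.0 and GRCh38, without roles or order. The deposited values (unit signal) are reads divided by 1 size factor per library: 100% of values were whole reads within 0.05 read after division by the value of 1 read. Size factors ranged from 0.841 to 1.29, so a value near 5 stands for a few reads. Authors' tables of comparisons (fold changes and p-values) were not used.

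Genes with a mean value of 5 or more (18615) were tested on log2(value + 1), which understates changes of low genes, by limma with a trend over all 21 libraries and 7 conditions, with Benjamini-Hochberg adjustment within each of 9 comparisons. Biological triplicates are as the series states. Replicates differed by more than sampling noise in every pair (chi-square per degree of freedom 1.54 to 3.99), and replicate numbers did not pair them. Family sums, gene lists and sequence features were described without tests. The members and lists were chosen with earlier results of these data known.

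Values per library are given for ARID1A and ARID1B (as ranges), the highest member of each family, members called the same way in all 6 comparisons, and the called members with the highest and lowest log2 fold change among those with a mean of 50 or more. SLBP and NPAT are named, with up to 3 called genes of largest change per list and the 5 genes most like the members' mean. Other members, such as H2BC21 and the copies that share reads, were given values after these were seen. Positions, stem-loops and shared stretches come from GENCODE release 29 (GRCh38, gene identifiers matched without version for 63 of 65 members) and upstream sequences from RefSeq (GRCh38.p14, 60 members). The authors' annotation release is not given in the sources used here.

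Alternatives were pseudocounts of 0.5 and 5, no filter (35892 genes), edgeR's quasi-likelihood test with TMM and DESeq2's Wald test on recovered reads, scaling to total reads, the replicate block, only the libraries compared, and each library left out. Summing near-identical copies was added after seeing the data. The tests were checked on simulated data, with changes planted in a small set of genes away from the lowest values. That check does not cover members with few reads, or data in which most genes are called. R 4.3.3 (limma 3.58.1, edgeR 4.0.16, DESeq2 1.42.0) and Python 3.11.15 (numpy 2.4.6, pandas 2.3.3, matplotlib 3.10.9) were used.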

Additional observations from a re-analysis of the deposited data

Results flagged for a closer look

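Members were singled out where the 2 shRNA sets of 1 label were called in opposite directions against Control and their direct difference was called as well, which gave 15 values for 10 members in limma. In the direct comparisons 12233 to 13995 of all 18615 genes were called. The share of all genes that met the full rule is not given here, so the flags are not read as a trait of these members. Between shARID1A.4 and shARID1A.2 the direct log2 difference was -1.56 ± 0.081 (SE) for H2BC12, -3.07 ± 0.14 (SE) for H2BC21, -2.78 ± 0.24 (SE) for H1-2, -2.56 ± 0.22 (SE) for H2BC8 and -2.58 ± 0.39 (SE) for H3C10. These members were higher than Control in all 3 libraries of shARID1A.2 and lower in all 3 of shARID1A.4.

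Between shARID1B.3 and shARID1B.2 the difference was -3.39 ± 0.081 (SE) for H2BC12, -2.99 ± 0.12 (SE) for H3C6, -2.78 ± 0.14 (SE) for H2BC21, -3.05 ± 0.12 (SE) for H2AC6 and -1.25 ± 0.13 (SE) for H2BC5. It was -1.88 ± 0.19 (SE) for H2AC11, -2.13 ± 0.24 (SE) for H1-2 and -1.51 ± 0.22 (SE) for H2BC8. The call of H2AC11 in shARID1B.3 (-0.47 ± 0.19 (SE), adjusted p = 0.034) was lost without Control replicate 1 (adjusted p = 0.094) or 3 (0.16) or shARID1B.3 replicate 1 (-0.21, adjusted p = 0.31). Both sets of libraries labelled shARID1B had low ARID1A and ARID1B near Control.

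Between shARID1A/B.4.2 and shARID1A/B.2.3 it was 1.13 ± 0.14 (SE) for H2BC21 and 1.72 ± 0.35 (SE) for H2BC4. Both calls of H2BC4 against Control were lost when some single library was left out, for example Control replicate 1 for shARID1A/B.4.2 (log2 fold change 0.67, adjusted p = 0.13) and shARID1A/B.2.3 replicate 3 for that condition (-0.63, adjusted p = 0.15). The libraries of shARID1A.2, shARID1B.2 and shARID1A/B.4.2, on the higher side each time, also had the higher 75th percentile of deposited values, whose part in these differences was not tested.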

How the results depend on the processing

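The number of members called stayed within 1.5 times the reported count in all 9 comparisons under every alternative tried. Over single libraries left out it was 24 to 26 for shARID1A.2, 15 to 22 for shARID1A.4, 19 to 23 for shARID1B.2, 10 to 13 for shARID1B.3, 14 to 18 for shARID1A/B.2.3 and 16 to 20 for shARID1A/B.4.2 against Control, and 24 to 26, 19 to 21 and 12 to 16 for the direct comparisons of the shARID1A, shARID1B and shARID1A/B sets. With the replicate block it was 26, 15, 21, 11, 18, 19, 26, 23 and 16 in that order. Same-numbered libraries did not deviate together (63 pairs, correlation -0.084 to 0.048, 0 over 0.1, 7 libraries closest to their own number), so the number is no pairing. With only the libraries compared, 25 and 14 members were called in shARID1A.2 and shARID1A.4, from a fit that holds no library labelled shARID1B or shARID1A/B. Of 46 called fold changes of the 9 members given per library, with 686 values under alternatives in all, 12 lost the call (H2BC9 6 times, H4C14, H4C15 and H2BC15 2 times each) and 0 turned their sign. The family sums, as log2 ratios to Control, moved by more than the spread of replicates with scaling to total reads in shARID1A.2 (H1 0.69, H2A 2.44, H2B 1.41, H3 1.56 and H4 1.53), in shARID1B.2 (H2A 1.89, H2B 1.32 and H3 2.02), in shARID1A/B.2.3 (H2B 0.054) and in shARID1A/B.4.2 (H1 -0.25, H2A 1.60, H2B 0.89, H3 1.06 and H4 1.59). Taking all members in place of those kept moved H2A to 2.18 in shARID1A.2 and 0.25 in shARID1A.4, H2B to 1.16 in shARID1B.2, -0.90 in shARID1B.3 and 0.69 in shARID1A/B.4.2, and H3 to 1.24 in shARID1A.2, -0.20 in shARID1A.4, 1.72 in shARID1B.2, 0.83 in shARID1A/B.2.3 and 0.70 in shARID1A/B.4.2. The direction of each was as reported. Depth limits the members with a mean below 50, where a few reads per library carry a call.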
